A study of Mus musculus with 24 samples.

Results

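Collagen genes were examined in the cerebellum (CB) and hippocampus (HC) of mice homozygous for the 16Gso translocation (16GsoT/T) and of wild type (WT) mice. The members were all gene symbols of the deposited count tables written as Col, a type number, the letter a and a chain number, which gave 41 genes of 25793 symbols. By class they were 11 fibrillar, 6 basement membrane (type IV), 9 FACIT (fibril-associated, with interrupted helices), 4 beaded filament (type VI), 3 short-chain (types VIII and X), 2 multiplexin and 4 transmembrane collagens, with *Col7a1* of the anchoring fibrils and *Col28a1* in no larger class. RNA-seq was done on 24 libraries in 8 groups of 3 libraries, WT and 16GsoT/T in CB and in HC at postnatal day 14 (P14) and postnatal day 35 (P35). The paper describes males on a B6C3 background, the cross of C57BL/6 with C3H/He, with homozygotes bred from homozygous parents. The sample labels instead give C57BL/6, although B6C3 stands in the names of WT libraries of P35 CB and of both HC ages. 16Gso is a single reciprocal translocation between chromosomes 5 and 8 that breaks between *Auts2* and *Galnt17* and upstream of *Sox1*, and no transgene or drug was used.

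Collagens are proteins of 3 chains that wind into a triple helix, in which glycine recurs at a fixed interval along each chain. Fibrillar collagens form the banded fibrils of connective tissue, type IV forms the network of basement membranes, FACIT collagens sit on fibril surfaces, type VI forms beaded filaments near cells, and transmembrane collagens stay in the cell membrane. In brain most of this matrix lies in the meninges and around blood vessels, and some collagens are also made by neurons and glia. Tissue RNA was measured in bulk, so that fewer cells of a type and less RNA per cell cannot be told apart.

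The glycine repeat is visible in the coding sequences of the members. In the GENCODE vM1 annotation of NCBIM37 all 41 members have a coding sequence, and the longest uninterrupted run of codon triplets that start with a glycine codon spanned between 216 and 344 triplets in the fibrillar class. Type IV runs reached between 39 and 66 triplets, FACIT runs between 32 and 113, and transmembrane runs between 40 and 56, so that none of these classes overlapped the fibrillar range. These lines give the first 45 bases of the longest run in 4 members that the later comparisons turn on, with the glycine codons in capitals, 5′ to 3′ on the coding strand.
Col5a1 (fibrillar, chromosome 2, + strand, coding bases 1675 to 1719): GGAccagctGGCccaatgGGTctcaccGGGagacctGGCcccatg
Col7a1 (anchoring fibril, chromosome 9, + strand, coding bases 7552 to 7596): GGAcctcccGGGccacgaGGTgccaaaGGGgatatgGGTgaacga
Col4a1 (type IV, chromosome 8, - strand, coding bases 127 to 171): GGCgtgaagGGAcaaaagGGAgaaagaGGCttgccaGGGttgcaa
Col25a1 (transmembrane, chromosome 3, + strand, coding bases 565 to 609): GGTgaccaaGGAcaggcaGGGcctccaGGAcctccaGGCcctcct
The run continues for 338 triplets in *Col5a1*, 75 in *Col7a1*, 40 in *Col4a1* and 40 in *Col25a1*.

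Members were long and rich in G and C, with a median exon length of 6831 bases (3095 to 15228) and a median exon GC content of 55.2%. Several lie side by side. *Col4a1* and *Col4a2*, the chains of the common type IV network, overlap by 22 bases in opposite directions on chromosome 8 (chr8:11198423-11312826 and chr8:11312805-11449287). *Col4a3* and *Col4a4* lie 71 bases apart on chromosome 1, and *Col4a5* and *Col4a6* lie 1308 bases apart on the X chromosome. *Col4a1* and *Col4a2* were the only members on either chromosome of the translocation. A short list of genes near the chromosome 8 breakpoint was looked up, and the nearest of them, A230072I06Rik, starts 830 kb beyond the end of *Col4a2*. Other genes in that interval were not looked up.

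Between 2563968 and 40564789 reads per library were counted on genes, the fewest in P35 HC, and between 1303 and 34909 of these fell on collagen genes. Summed markers of cerebellar neurons ranged from 5321 to 6924 CPM (read counts scaled to a common library size) in CB and from 70.4 to 258 CPM in HC, and hippocampal markers ranged from 840 to 1085 CPM in HC and from 73.2 to 103 CPM in CB. *Galnt17*, listed as Wbscr17, ranged from 39.9 to 43.3 CPM in WT against 18.2 to 22.1 CPM in 16GsoT/T in P14 CB. Its groups did not overlap in P35 CB, P14 HC or P35 HC either. The edgeR adjusted p was 0.000563 in P14 CB, 0.00835 in P35 CB and 0.0163 in P14 HC. In P35 HC it was 0.120, so that *Galnt17* was not called there. In P14 HC all WT libraries were run on 1 lane and all 16GsoT/T libraries on another, so that genotype and lane cannot be told apart there. In P35 CB all libraries shared a lane, but 37.7% ± 0.0648 (SD, n = 3) of the WT reads and 42.3% ± 0.0563 (SD, n = 3) of the 16GsoT/T reads were counted on genes, a library property that cannot be told apart from genotype. In P35 HC, WT libraries W481 and W483 carried dual indexes and the other 4 libraries single ones. In P14 CB 64.8% to 68.1% of reads were counted on genes, and in all other groups 37.6% to 42.4%. Where P14 CB is set against another age or region, this property cannot be told apart from age or region.

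The study asked what the translocation changes in each region and at each age, and collagen genes differed between genotypes in P35 CB. Of 34 members tested there, 20 had a lower level in 16GsoT/T and 0 a higher one (edgeR quasi-likelihood test, adjusted p of at most 0.05). Over all 14004 genes tested, 18% were lower and 17.4% were higher. The median log2 fold change of the members was -0.72, against -0.00 over all genes. DESeq2 called 15 members, all lower. Summed over all members, WT libraries held 652 ± 53.5 CPM and 16GsoT/T libraries 456 ± 21.8 CPM (SD, n = 3), a description with no test. By class, 7 of 10 fibrillar, 4 of 5 type IV, 5 of 7 FACIT, 1 of 3 type VI, 1 of 2 short-chain and 1 of 2 multiplexin members were lower, as was *Col7a1*, and 0 of 4 transmembrane members were called by edgeR. The remaining 7 members, *Col4a4*, *Col6a6*, *Col10a1*, *Col14a1*, *Col22a1*, *Col24a1* and *Col28a1*, did not pass the filter on low counts, with at most 15 reads in any of these 6 libraries.

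**Figure D1:**
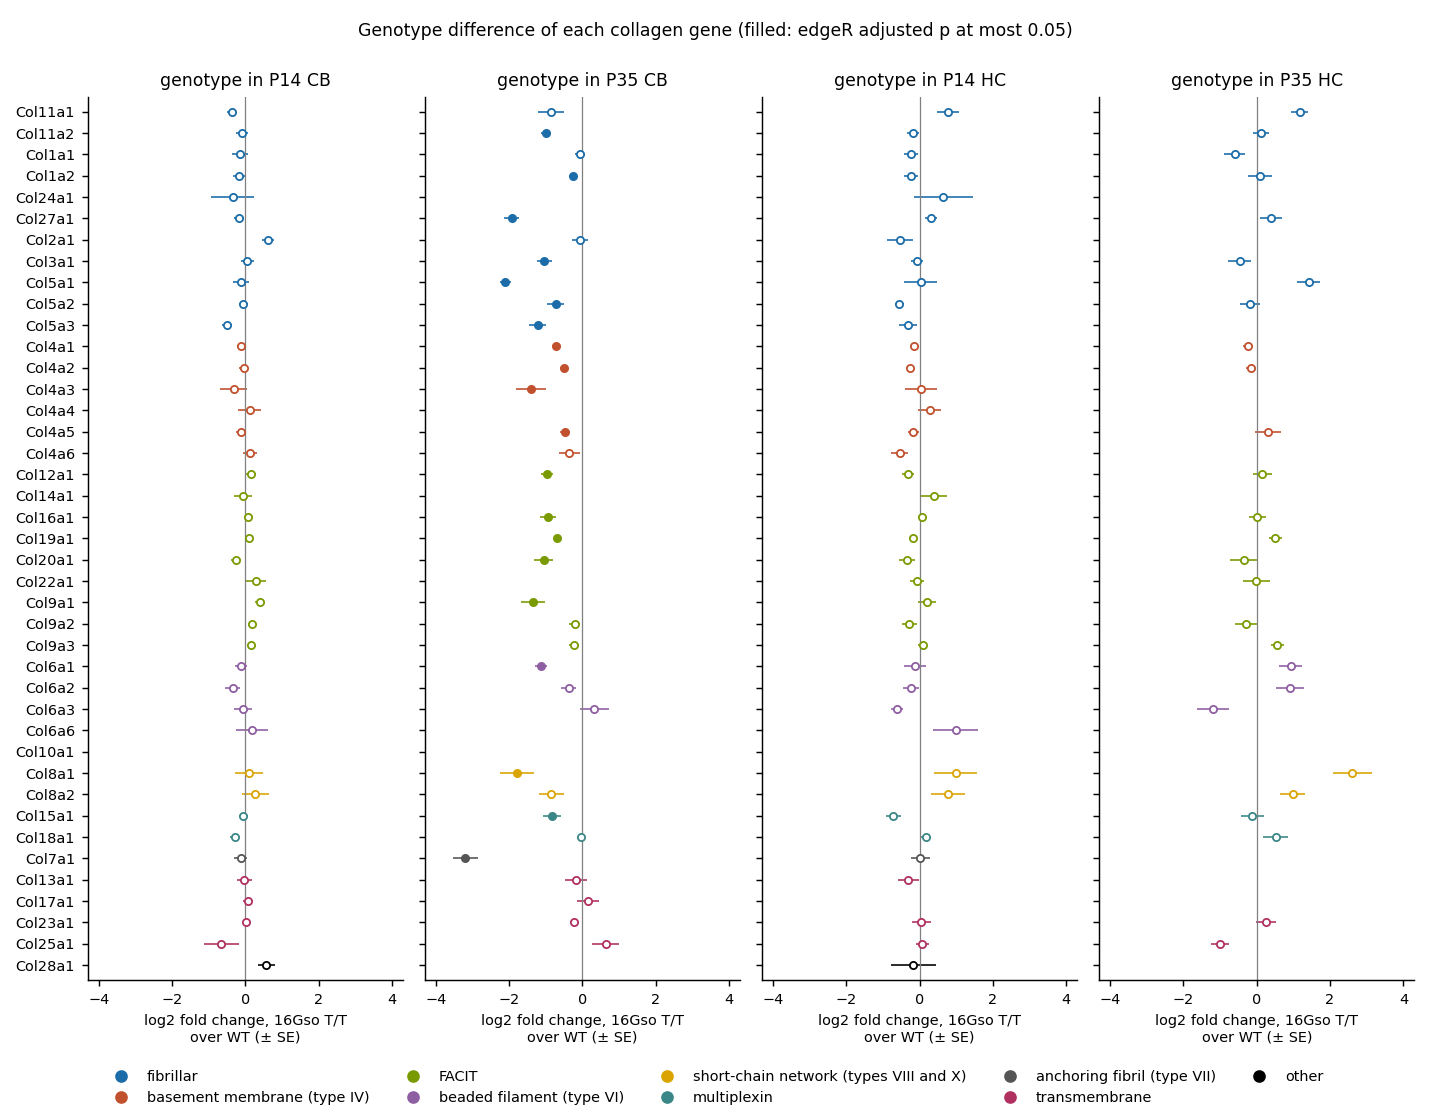
Log2 fold change (± SE of the edgeR fit) of each collagen gene in 16GsoT/T over WT, with 1 panel for each region and age and 3 libraries per genotype; filled points passed an adjusted p of 0.05 and members with no point did not pass the count filter. Filled points appear only in the P35 CB panel, where 20 of the 34 tested members are filled and lie below 0, with *Col7a1* at -3.19 the farthest.

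The largest difference was that of *Col7a1*, whose protein builds the anchoring fibrils that hold epithelia to the tissue below (chr9:108855631-108886920). It measured 12.5, 10.5 and 9.37 CPM in the WT P35 CB libraries and 0.692, 0.568 and 2.23 CPM in the 16GsoT/T libraries. Every 16GsoT/T library lay far below every WT library, and the log2 fold change was -3.19 ± 0.35 (SE, adjusted p = 3.06e-05). In P14 CB the same gene ranged from 3.60 to 5.52 CPM in WT against 3.90 to 4.74 CPM in 16GsoT/T, with overlapping groups.

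Among fibrillar collagens the type V and XXVII chains led. *Col5a1*, a chain of the collagen that starts and limits the growth of type I fibrils (chr2:27741945-27895034), measured 24.6, 30.0 and 26.99 CPM in WT against 5.88, 7.38 and 5.81 CPM in 16GsoT/T in P35 CB. *Col27a1*, a fibrillar collagen known from cartilage (chr4:62875038-62996025), measured 31.7, 48.1 and 31.1 CPM against 12.8, 7.24 and 9.98 CPM. For both genes the genotypes were widely separated, with log2 fold changes of -2.11 ± 0.15 (SE, adjusted p = 9.88e-07) and -1.93 ± 0.21 (SE, adjusted p = 2.94e-05). *Col5a3*, another type V chain, was at 8.89, 6.65 and 8.25 CPM in WT against 3.81, 2.70 and 3.72 CPM in 16GsoT/T. *Col3a1*, the type III chain of extensible tissues such as vessel walls, was at 21.1, 16.7 and 18.7 CPM against 12.8, 7.10 and 8.19 CPM. Both showed groups that did not overlap, with log2 fold changes of -1.22 ± 0.23 and -1.04 ± 0.19. *Col11a2*, a chain that forms thin fibrils with *Col11a1*, fell by 1.0 on the log2 scale (adjusted p = 0.000153), and *Col5a2* by 0.73 with overlapping groups (adjusted p = 0.0307).

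The type I chains, the most abundant collagens of connective tissue, stood apart from these. *Col1a2* measured 47.6, 49.7 and 49.8 CPM in WT against 46.7, 41.3 and 35.5 CPM in 16GsoT/T, the highest level per kb of the fibrillar class in P35 CB. Its groups came close without overlapping, and the log2 fold change was -0.27 ± 0.10 (adjusted p = 0.0472). This call held in 3 of 13 alternatives. It was lost without C20, C21, M27, M28 or M29, in DESeq2, with DESeq2 size factors, in the fit of 12 libraries, with length and GC offsets and with the summed choroid plexus markers as a covariate (adjusted p up to 0.370). *Col1a1* measured 16.3, 22.7 and 20.2 CPM in WT against 20.2, 18.5 and 18.6 CPM in 16GsoT/T, with a log2 fold change of -0.07 ± 0.14 (adjusted p = 0.722). *Col2a1*, the main cartilage collagen, gave -0.06 ± 0.22 (adjusted p = 0.857), and *Col11a1* gave -0.85 ± 0.35 (adjusted p = 0.0801).

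**Figure D2:**
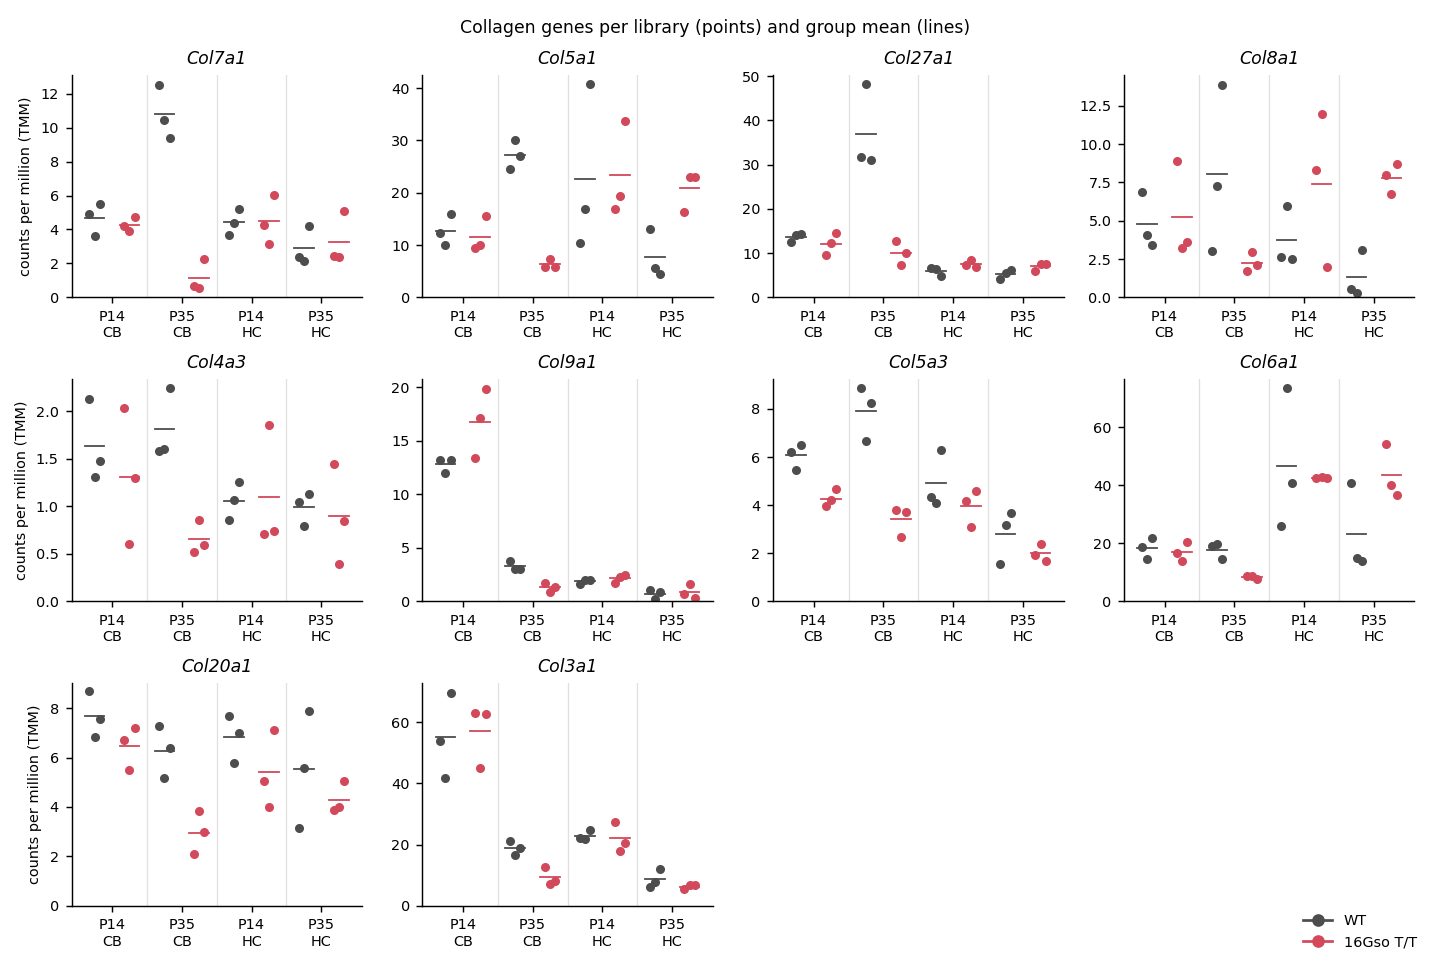
TMM-scaled CPM of the 10 collagen genes called in P35 CB with a log2 fold change below -1, in all 24 libraries (points, 3 per group) with the group mean (line), WT in grey and 16GsoT/T in red; each panel has its own linear axis from 0. In P35 CB the red points lie below all grey points in each panel, and for *Col7a1*, *Col5a1* and *Col27a1* the WT P35 CB points also lie above the P14 CB points of both genotypes.

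In the basement membrane class the main chains moved together. *Col4a1* measured 28.6, 33.7 and 33.7 CPM in WT P35 CB and 18.5, 20.6 and 19.96 CPM in 16GsoT/T. *Col4a2*, its partner in the heterotrimer, measured 23.3, 24.6 and 26.4 CPM against 15.7, 18.7 and 18.03 CPM. Neither gene's groups overlapped, and the log2 fold changes were -0.71 ± 0.11 (adjusted p = 0.00047) and -0.51 ± 0.12 (adjusted p = 0.0057). *Col4a3*, a chain of the mature kidney basement membrane, was low throughout, at 1.59, 1.60 and 2.25 CPM in WT against 0.519, 0.852 and 0.596 CPM in 16GsoT/T. Its log2 fold change was -1.41 ± 0.41 (adjusted p = 0.0181), and the call was lost without C19, C21 or M29 and in DESeq2 (adjusted p up to 0.140). *Col4a5* fell by 0.48 on the log2 scale (adjusted p = 0.0177), a call that did not hold without M28, in DESeq2 or in the fit of 12 libraries. *Col4a6* measured between 2.70 and 3.19 CPM in WT against 2.08 to 2.68 CPM in 16GsoT/T and was not called (adjusted p = 0.344).

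FACIT members also differed, apart from a pair of type IX chains. *Col9a1*, a type IX chain, measured 3.81, 3.08 and 2.998 CPM in WT P35 CB and 1.73, 0.852 and 1.34 CPM in 16GsoT/T. *Col20a1* measured 7.30, 5.17 and 6.37 CPM against 2.08, 3.83 and 2.98 CPM. *Col12a1*, which coats type I fibrils, measured 15.4, 18.3 and 19.9 CPM against 8.82, 10.2 and 8.49 CPM. In each of these 3 genes all 16GsoT/T libraries were lower than all WT libraries, with log2 fold changes of -1.36 ± 0.33, -1.06 ± 0.27 and -0.97 ± 0.15. *Col16a1* and *Col19a1* fell by 0.94 and 0.69 on the same scale. *Col9a3* and *Col9a2*, the other chains of type IX, were not called at -0.24 ± 0.14 and -0.21 ± 0.15, so that the single type IX chain that was called is also the one at the lowest level. *Col9a3*, the collagen gene at the highest level per kb in WT P35 CB, measured 53.3, 63.9 and 86.2 CPM in WT against 55.9, 60.5 and 56.6 CPM in 16GsoT/T, which overlapped.

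Type VI, short-chain and multiplexin members were mixed. *Col6a1*, a core chain of the beaded filaments (chr10:76171537-76188913), measured 19.04, 19.8 and 14.6 CPM in WT P35 CB and 8.65, 8.66 and 7.60 CPM in 16GsoT/T. All 3 16GsoT/T libraries were lower (log2 fold change -1.13 ± 0.16, adjusted p = 0.000189), while its partners *Col6a2* (-0.37 ± 0.20) and *Col6a3* (0.33 ± 0.38) were not called. *Col15a1*, a multiplexin of vessel basement membranes, measured 5.40, 7.39 and 6.75 CPM against 3.29, 4.69 and 2.98 CPM (log2 fold change -0.84 ± 0.25, adjusted p = 0.0185), a call that did not hold without C21, M28 or M29 or in DESeq2. *Col18a1*, the other multiplexin and the source of endostatin, measured 92.7, 117 and 109 CPM in WT against 115, 102 and 99.8 CPM in 16GsoT/T and did not differ beyond the spread of its libraries (log2 fold change -0.03 ± 0.09, adjusted p = 0.828).

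Transmembrane collagens were the class in which no member was called in P35 CB by edgeR or, of these 4, reached an unadjusted p under 0.05. *Col23a1*, the class member at the highest level per kb in CB, measured 29.5, 37.3 and 33.0 CPM in WT against 30.5, 28.96 and 27.6 CPM in 16GsoT/T, with overlapping groups. *Col25a1*, a neuronal collagen found with amyloid plaques, measured 0.952, 1.85 and 0.937 CPM in WT against 2.08, 1.99 and 2.09 CPM in 16GsoT/T. Its groups did not overlap, but the log2 fold change of 0.63 ± 0.36 did not pass (adjusted p = 0.196). *Col13a1* and *Col17a1* gave -0.18 ± 0.30 and 0.14 ± 0.30.

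Of the short-chain collagens, 1 of 2 tested was called. *Col8a1*, which forms hexagonal sheets in specialised basement membranes (chr16:57624371-57754850), measured 3.02, 7.26 and 13.9 CPM in WT P35 CB libraries M27, M28 and M29 and 1.73, 2.98 and 2.09 CPM in 16GsoT/T libraries C19, C20 and C21. The log2 fold change was -1.78 ± 0.46 (adjusted p = 0.0103), and library M27 lay just above the 16GsoT/T libraries. Summed choroid plexus markers in the same WT libraries were 22.9, 1249 and 2144 CPM, and in the 16GsoT/T libraries 142, 389 and 288 CPM. With these markers as a covariate, an alternative chosen after seeing the data, the log2 fold change of *Col8a1* was -1.36 (adjusted p = 0.00683) and 19 members were called lower. *Col8a2*, its partner, measured 5.40, 8.86 and 13.9 CPM against 3.11, 7.10 and 5.07 CPM and was not called (adjusted p = 0.0683).

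**Figure D3:**
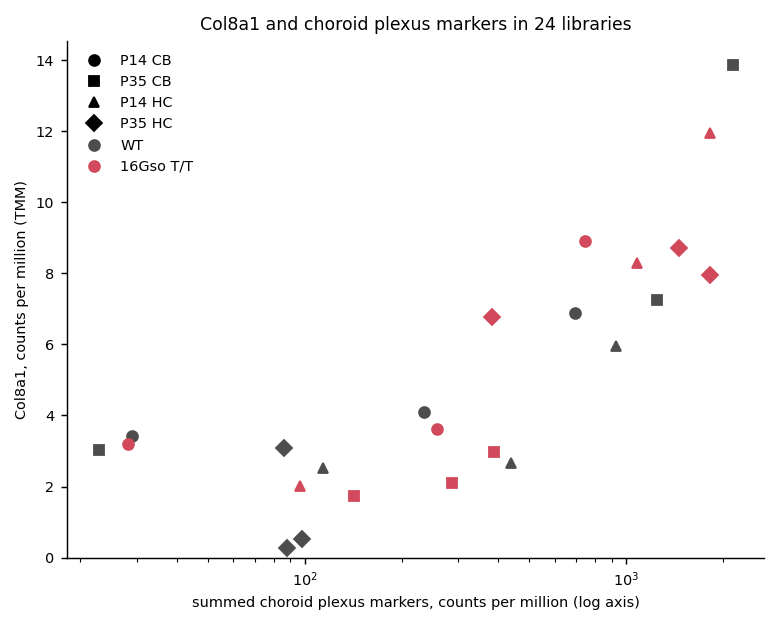
*Col8a1* level (CPM, linear axis) against the summed level of 10 choroid plexus markers (CPM, log axis) in the 24 libraries; symbols give region and age, grey is WT and red 16GsoT/T. Within WT P35 CB, *Col8a1* lay at 3.02 CPM with 22.9 CPM of markers in M27 and at 13.9 CPM with 2144 CPM in M29. WT P35 HC libraries N10 and W481 lay below M27 in *Col8a1* at higher marker sums of 98.2 and 88.1 CPM. An association over the libraries was not tested.

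Markers of vessel and meningeal cells moved with the collagen genes in P35 CB. Of the listed endothelial markers 12 of 12 were lower in 16GsoT/T, of the mural cell markers 9 of 10 and of the meningeal fibroblast markers 9 of 12, each with 0 higher. Summed endothelial markers ranged from 283 to 303 CPM in WT against 136 to 153 CPM in 16GsoT/T, summed mural markers from 189 to 199 CPM against 103 to 109 CPM, and summed meningeal fibroblast markers from 929 to 1012 CPM against 697 to 779 CPM. Defining markers such as *Cldn5*, *Pdgfrb* and *Foxc1* were above 0 in every group. Of 9 bone and cartilage markers, 4 were tested and 0 were called, with sums between 15.6 and 20.6 CPM in P35 CB and *Bglap2* and *Matn3* at 0 reads. Of 4 blood markers 2 were higher and 1 was lower. The part of these cells in the collagen differences was not tested. Exon length and base composition also moved with the calls, as 11.9% of the 3205 shortest and 23.0% of the 3204 longest genes were lower in P35 CB, and 24 of the 34 members tested were among these longest genes. By GC content the members lay on the other side, as 21 of the 34 were among the 3204 genes of highest GC content, of which 14.0% were lower and 23.4% higher, against 31.9% lower and 6.05% higher in the 3204 genes of lowest GC content. With offsets for length and GC content 18 members were called.

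In P35 CB, 15 of the 20 called members passed under each alternative fit that gave an adjusted p. The other 5 were *Col1a2*, *Col4a3*, *Col4a5*, *Col5a2* and *Col15a1*. A limit of 1.5 on the fold change was not counted among these alternatives. With that limit 17 members were called, and *Col4a2*, among the 15, did not reach it, nor did *Col1a2* and *Col4a5*. Among the 15, *Col7a1* and *Col9a1* had values in only 12 alternatives. Their reads were too few for the setting with at least 10 counts in every library, which therefore could not test them. *Col7a1* had 4 to 15 reads in the P35 CB libraries of homozygotes and 50 to 85 in those of WT. *Col5a2* was lost without C20, C21, M27 or M28, in DESeq2, in the fit of 12 libraries and with length and GC offsets, with an adjusted p up to 0.152.

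The starts of *Col5a1*, *Col27a1* and *Col7a1*, whose differences were the largest, are shown as the 250 bases before the RefSeq start in GRCm38.p6, with matches to the CCAAT box, to the GC box GGGCGG or to the TATA motif TATAAA on either strand in capitals.
Col5a1 (chr2:27886175-27886424, + strand): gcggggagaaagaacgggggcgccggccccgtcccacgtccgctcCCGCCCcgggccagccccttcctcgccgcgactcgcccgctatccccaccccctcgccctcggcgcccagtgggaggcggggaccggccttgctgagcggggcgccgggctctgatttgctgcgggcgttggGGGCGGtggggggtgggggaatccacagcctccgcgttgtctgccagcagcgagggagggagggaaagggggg
Col27a1 (chr4:63215162-63215411, + strand): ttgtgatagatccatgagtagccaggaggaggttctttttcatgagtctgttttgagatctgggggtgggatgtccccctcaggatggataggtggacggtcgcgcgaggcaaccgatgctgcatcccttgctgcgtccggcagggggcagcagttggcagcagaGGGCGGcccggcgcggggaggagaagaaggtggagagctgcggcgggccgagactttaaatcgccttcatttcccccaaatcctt
Col7a1 (chr9:108953336-108953585, + strand): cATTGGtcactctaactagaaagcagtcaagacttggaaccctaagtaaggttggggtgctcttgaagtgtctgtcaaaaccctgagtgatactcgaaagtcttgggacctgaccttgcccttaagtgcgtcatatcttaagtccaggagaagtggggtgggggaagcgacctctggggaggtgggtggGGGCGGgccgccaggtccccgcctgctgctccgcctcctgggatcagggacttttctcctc
GGGCGG occurred in each of these windows, with 2 matches in that of *Col5a1*, and TATAAA in none. RefSeq windows matched 33 of the 41 members, and GGGCGG was found in 55.6% of their 36 windows and in 32.7% of all 32851 windows. CCAAT was found in 33.3% of the member windows and 33.8% of all, and TATAAA in 13.9% and 12.4%. A match describes the letters and not a bound site.

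In P14 CB, by contrast, 0 of 40 members tested were called by edgeR in either direction, with 6 at an unadjusted p under 0.05 and 1 called by DESeq2. Over all 15993 genes 0.0938% were higher and 0.413% were lower, and 1421 had an unadjusted p under 0.05. The largest differences at an unadjusted p under 0.05 were those of *Col2a1* (0.62 ± 0.17, adjusted p = 0.241) and *Col28a1* (0.57 ± 0.24, adjusted p = 0.507). *Col2a1* measured 12.4, 11.3 and 10.3 CPM in WT against 13.4, 22.7 and 16.4 CPM in 16GsoT/T, groups that did not overlap, and it was the gene called by DESeq2 and also by edgeR without 16GsoT/T library 4. *Col4a1*, at 88.1, 80.0 and 113 CPM in WT against 99.0, 76.8 and 84.7 CPM in 16GsoT/T, overlapped between genotypes. *Col4a2* overlapped too, at 54.3, 51.7 and 67.0 CPM against 65.9, 51.3 and 50.2 CPM. Summed endothelial markers were at 253 to 284 CPM in WT against 265 to 285 CPM in 16GsoT/T.

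In P14 HC, 0 of 39 members tested were called by edgeR, with 6 at an unadjusted p under 0.05 and 2 called by DESeq2. Of all 15227 genes 0.361% were higher and 0.453% were lower, and 2669 had an unadjusted p under 0.05, a share like that of the members. *Col15a1* and *Col5a2* were the members called by DESeq2. *Col15a1* measured 19.4, 15.3 and 19.4 CPM in WT against 8.05, 10.3 and 14.6 CPM in 16GsoT/T, and its groups did not overlap (log2 fold change -0.72 ± 0.20, edgeR adjusted p = 0.126). Without 16GsoT/T library A18 it was called by edgeR as well. *Col4a1* and *Col4a2* overlapped between genotypes, at 94.8, 99.3 and 120 CPM against 96.5, 84.4 and 105 CPM and at 83.1, 87.3 and 92.7 CPM against 73.6, 64.2 and 83.4 CPM.

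In P35 HC, 0 of 27 members tested were called by edgeR, with 10 at an unadjusted p under 0.05 and 3 called by DESeq2. Over 13343 genes 0.112% were higher and 0.0225% were lower, and 1179 had an unadjusted p under 0.05. *Col8a1* measured 0.523, 0.266 and 3.10 CPM in WT libraries N10, W481 and W483 and 7.96, 6.77 and 8.72 CPM in 16GsoT/T. *Col5a1* measured 13.1, 5.59 and 4.51 CPM against 16.4, 23.1 and 23.1 CPM. For both genes all 16GsoT/T libraries were above all WT libraries, with log2 fold changes of 2.61 ± 0.53 (edgeR adjusted p = 0.104) and 1.41 ± 0.32 (edgeR adjusted p = 0.146). *Col11a1* was at 1.17 ± 0.22 (adjusted p = 0.0648) and *Col25a1* at -1.0 ± 0.24 (adjusted p = 0.211).

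Values for these members in P35 HC depended on single WT libraries. *Col6a1* measured 40.8, 14.9 and 13.8 CPM in N10, W481 and W483 and 54.3, 40.2 and 36.6 CPM in 16GsoT/T, so that N10 lay among the 16GsoT/T libraries. Without N10, edgeR called *Col5a1*, *Col6a1*, *Col6a2* and *Col11a1* higher, and without W483 it called *Col8a1* and *Col11a1* higher. Choroid plexus markers moved with genotype here, as 7 of 9 tested were higher in 16GsoT/T, with sums of 85.9 to 98.2 CPM in WT against 381 to 1818 CPM in 16GsoT/T. With these markers as a covariate 0 members were called and *Col8a1* was at 2.20 (adjusted p = 0.861). Because the marker sums do not overlap between genotypes, this fit cannot tell marker level and genotype apart. *Col4a1* and *Col4a2* ran at 55.7, 53.8 and 64.2 CPM against 46.8, 51.7 and 48.1 CPM and at 63.5, 56.4 and 74.6 CPM against 57.7, 55.7 and 59.1 CPM, and neither was called. The 14 members that did not pass the count filter had at most 18 reads in a library, *Col7a1* among them.

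Whether the genotype difference itself changed with age was tested in CB over 12 libraries. Of 38 members tested, 12 were called, all with a lower genotype difference at P35 than at P14, and each of them was among the 20 called in P35 CB. Over 15784 genes 10.8% were called lower and 7.81% higher. The largest were *Col7a1* (-3.09 ± 0.41 on the log2 scale, adjusted p = 0.000133), *Col5a1* (-2.0 ± 0.30, adjusted p = 0.000388), *Col27a1* (-1.77 ± 0.28, adjusted p = 0.000627) and *Col9a1* (-1.76 ± 0.34, adjusted p = 0.00255). *Col4a2*, *Col20a1* and *Col5a3*, called in P35 CB, did not pass this test (adjusted p of 0.0934, 0.0589 and 0.0524). Calls for *Col3a1*, *Col4a1* and *Col15a1* depended on which library was kept, and leaving out 1 library gave between 9 and 14 calls. In CB each age had its own lane label, shared by both genotypes. The genotypes are thus compared within a lane label, and the difference between ages cannot be told apart from lane. In HC, 0 of 37 members were called for genotype by age by edgeR, with 4 at an unadjusted p under 0.05 and 0 by DESeq2, against 0.00666% of all 15010 genes called and 1708 of them at an unadjusted p under 0.05.

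**Figure D4:**
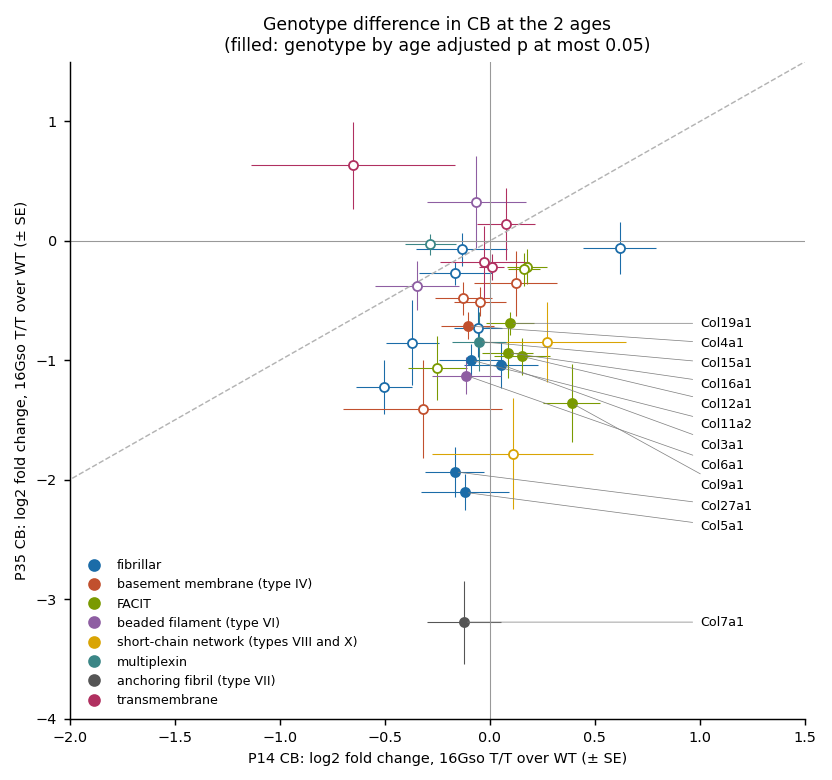
Genotype difference in CB (log2 fold change of 16GsoT/T over WT, ± SE) at P14 on the horizontal axis and at P35 on the vertical axis, 1 point for each of the 34 collagen genes tested at both ages, coloured by class; the dashed line marks equal differences and filled, named points passed the genotype by age test. The 12 named genes lie below the line, from *Col19a1* at -0.69 to *Col7a1* at -3.19 on the vertical axis, while on the horizontal axis they reach at most 0.39 (*Col9a1*).

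Whether the genotype difference differed between regions was tested at each age. CB and HC libraries carried different lane labels at both ages, so that region and lane cannot be told apart. At P14, 0 of 40 members were called for genotype by region by edgeR, with 5 at an unadjusted p under 0.05 and 0 by DESeq2, and of all 16398 genes 0% were called and 1509 had an unadjusted p under 0.05. At P35, 12 of 35 were called, 11 with a lower difference in CB than in HC and *Col25a1* with a higher one, where 5.1% of 14363 genes were lower and 4.5% higher. The largest were *Col8a1* (-4.41 ± 0.80), *Col5a1* (-3.51 ± 0.37), *Col7a1* (-3.40 ± 0.62) and *Col27a1* (-2.32 ± 0.38). *Col7a1* had at most 18 reads in any P35 HC library and 4 to 15 reads in the P35 CB libraries of homozygotes. For *Col8a1* the lowest WT P35 HC levels given above were also near the floor. The sizes of the differences of *Col7a1* and *Col8a1* therefore rest on low counts. Of the 12 called members, 8 were also called for genotype in P35 CB. *Col25a1* (1.62 ± 0.49, adjusted p = 0.0474), *Col8a2* and *Col9a3* each passed in only 3 of 12 fits made without 1 library. The choroid plexus markers moved in the same direction as *Col8a1*, with 8 of 10 lower for this interaction and 0 higher.

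In WT tissue the collagen transcripts at the highest level per kb of exon belonged to type IX, type IV and the multiplexins. *Col9a3* led in P14 CB at 18.3 ± 1.54 and in P35 CB at 17.6 ± 4.36 CPM per kb (SD, n = 3). It was followed by *Col4a1* (13.7 ± 2.48) and *Col18a1* (12.1 ± 2.60) in P14 CB, which overlap within their SD, and by *Col18a1* (15.1 ± 1.76) in P35 CB. *Col4a1* (15.4 ± 1.98) and *Col9a3* (15.2 ± 1.83) were first in P14 HC without a difference beyond their SD, and *Col4a2* (9.80 ± 1.39) and *Col4a1* (8.49 ± 0.816) in P35 HC. *Col3a1*, the highest fibrillar member in P14 CB, reached 6.57 ± 1.66 CPM per kb.

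**Figure D5:**
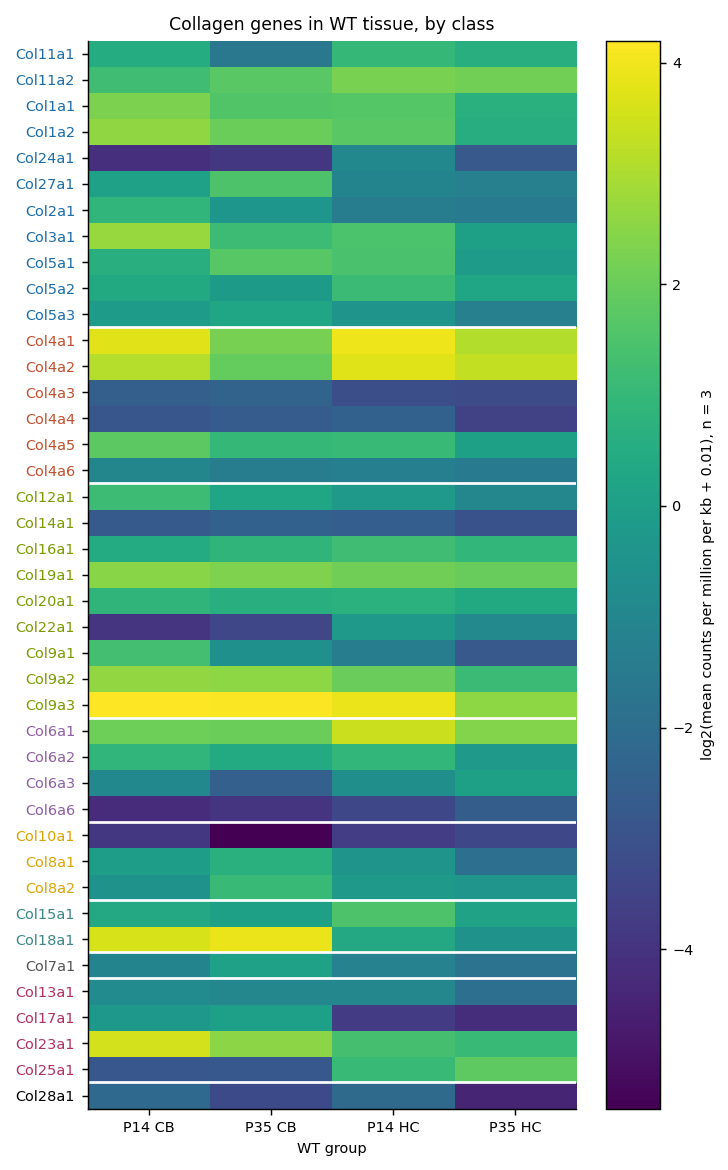
Mean level of each collagen gene in WT tissue, as log2 of CPM per kb of exon plus 0.01 (colour, n = 3 per group), with 1 row per gene grouped by class between white lines and 1 column per region and age. *Col9a3* and *Col4a1* are bright in all 4 columns, with *Col9a3* at 18.3 CPM per kb in P14 CB, and *Col18a1* is bright in the CB columns.

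Regions differed in WT mice at both ages, across lanes that cannot be told apart from region. At P14, 14 of 39 members were higher in CB and 9 were lower, where 38.8% of 15791 genes were higher and 38.4% lower. The members were thus called at P14 no more often than all genes. At P35, 19 of 33 were higher in CB and 6 lower, where 27.5% of 13886 genes were higher and 28.5% lower. *Col18a1* measured 92.7, 117 and 109 CPM in WT P35 CB and 4.70, 4.52 and 5.63 CPM in WT P35 HC. *Col25a1* measured 0.952, 1.85 and 0.937 CPM in CB and 31.6, 32.5 and 33.5 CPM in HC. Both separated the regions fully and in opposite directions, with log2 fold changes in CB over HC of 4.36 ± 0.16 and -4.67 ± 0.22 at P35 and of 3.21 ± 0.16 and -3.94 ± 0.34 at P14. *Col17a1*, a collagen of hemidesmosomes, was higher in CB by 4.22 ± 0.53 and 3.62 ± 0.29 on the log2 scale at P35 and P14, and *Col22a1*, a FACIT collagen of tissue junctions, was lower by -2.69 ± 0.39 and -3.98 ± 0.20. *Col17a1* had at most 3 reads in any P35 HC library and at most 7 in any P14 HC library. *Col22a1* had at most 6 reads in any P35 CB library. The sizes of these differences therefore rest on counts near the floor, for *Col22a1* at P35. *Col4a2* was lower in CB at both ages (-1.45 ± 0.12 at P35 and -0.63 ± 0.10 at P14). Of the P35 calls 22 of 25 passed under every alternative, as did 22 of 23 at P14.

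*Col8a1* (2.56 ± 0.69) overlapped between regions at P35, where its HC level was at most 3.10 CPM and its CB level was 3.02 CPM in M27. *Col23a1* lay at 65.0 to 68.5 CPM in WT P14 CB and at 9.57 to 17.97 CPM in WT P14 HC, a difference of 2.15 ± 0.17 on the log2 scale.

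With age most members that changed in WT tissue fell, across lanes that cannot be told apart from age. In CB, 15 of 37 members were lower at P35 than at P14 and 8 were higher, where 30.9% of 15387 genes were lower and 32.2% higher. In HC, 13 of 34 were lower and 1 was higher, where 12.2% of 14402 genes were lower and 12.6% higher. *Col4a1* fell by 1.53 on the log2 scale in CB and by 0.88 in HC, and *Col3a1* by 1.53 and 1.44. *Col11a1* (-2.13 ± 0.18) and *Col9a1* (-1.94 ± 0.16) fell the most of the called members in CB, and *Col3a1* (-1.44 ± 0.21) and *Col15a1* (-1.42 ± 0.18) of those in HC. The members that rose in CB included *Col27a1* (1.48 ± 0.14), *Col7a1* (1.24 ± 0.18) and *Col5a1* (1.13 ± 0.15), the 3 genes with the largest genotype differences in P35 CB, which use the same WT P35 CB libraries. *Col25a1* (0.73 ± 0.16) was the member that rose in HC. In HC 7 members were called without W481, and 7 of the 14 calls there and 17 of the 23 in CB passed under every alternative.

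Proteins that modify, process, bind or degrade collagen were read from lists of named genes, and each count stands against 18% of all genes lower and 17.4% higher in P35 CB. Of 16 tested genes for chain modification and folding in P35 CB, 4 were lower and 2 higher in 16GsoT/T, shares near those of all genes. *Leprel2*, a prolyl 3-hydroxylase, measured 50.3 ± 4.51 CPM in WT against 20.6 ± 1.48 CPM in 16GsoT/T (log2 fold change -1.30, adjusted p = 2.64e-06), and *Plod2*, a lysyl hydroxylase, fell by 0.63. *P4ha3*, a subunit of prolyl 4-hydroxylase, was higher by 1.76 ± 0.37 (adjusted p = 0.00313), and it was also higher in P14 HC by 0.87 ± 0.12 (adjusted p = 0.0229).

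Among 10 tested genes for propeptide processing and crosslinking 3 were lower and 0 higher, where 18% of all genes were lower. *Bmp1*, the proteinase that removes the C-terminal propeptide of fibrillar collagens, measured 285 ± 8.99 CPM in WT against 98.7 ± 0.489 CPM in 16GsoT/T (log2 fold change -1.54 ± 0.06, adjusted p = 2.23e-08). *Adamts2*, which removes the N-terminal propeptide, fell by 0.52, and *Pcolce*, which enhances *Bmp1*, by 0.65.

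Where 18% of all genes were lower, 4 of 7 tested collagen receptor genes were lower, which were *Itga1* (-1.0 ± 0.20), *Ddr2* (-0.86 ± 0.15), *Itgb1* (-0.53 ± 0.07) and *Mrc2* (-0.45 ± 0.15). Of 14 fibril-associated proteoglycan and matrix genes 6 were lower and 0 higher, with the small proteoglycan genes *Lum* (-1.63 ± 0.26), *Ogn* (-1.35 ± 0.19) and *Dcn* (-1.04 ± 0.11) and the elastin gene *Eln* (-1.22 ± 0.22) among them. Of 13 laminin, nidogen and perlecan genes 5 were lower and 0 higher, and *Lama5*, a laminin chain, fell by 1.55. Degradation genes were called at shares near those of all genes, with *Timp3* (-0.38 ± 0.07) and *Mmp14* (-0.52 ± 0.18) lower and *Timp2* (0.40 ± 0.12) higher of 7 tested. In P14 CB and P35 HC 0 genes of these 6 lists were called by edgeR, and in P14 HC *P4ha3* was the only one.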

How the data were processed

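RNA from CB and HC was sequenced on a HiSeq. The authors mapped reads with TopHat2 2.0.8 to NCBIM37, counted reads per gene with HTSeq 0.6.1 and deposited raw counts per gene, not normalized, in 1 table per age. The annotation and strand option are not given in the sources used here. How reads on the 22 bases shared by *Col4a1* and *Col4a2* were treated is therefore not known. The kit is KAPA in the paper and TruSeq in the labels. No value column was left out (0). Summary lines stayed out of library sizes, and between 37.6% and 68.1% of reads were counted on genes, with all P14 CB libraries above all others.

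Groups came from the labels. Each comparison used only its own groups, scaled by TMM and tested by quasi-likelihood in edgeR 4.0.16 (R 4.3.3) after filterByExpr (minimum count 10, total 15), with Benjamini-Hochberg adjustment over all genes. Levels are CPM with TMM factors over 24 libraries. DESeq2 1.42.0 was an alternative. Scripts were tested on simulated data. Members and lists were chosen with earlier results of these data known, so no count here is independent support. The sources used here do not state that each library came from a separate mouse, so p-values measure the spread between libraries, which may be technical. Values in every library are given for members called with a log2 change of at least 1 or among the 3 largest of a class, for the highest of each class and for those on chromosomes 5 and 8. *Col6a4*, *Col6a5*, *Col21a1* and *Col26a1* were not analysed here.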

Additional observations from a re-analysis of the deposited data

Results flagged for a closer look

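The genotype difference in CB differed between ages for 12 of 38 collagen genes tested, by the interaction test of edgeR over 12 libraries. Over all 15784 genes 10.8% were called lower and 7.81% higher. Age cannot be told apart from lane or from the share of reads counted on genes. On the log2 scale, as the P35 difference minus the P14 difference, the values were -3.09 for *Col7a1*, -2.0 for *Col5a1*, -1.77 for *Col27a1* and -1.76 for *Col9a1*. They were -1.12 for *Col12a1*, -1.10 for *Col3a1*, -1.03 for *Col16a1*, -1.02 for *Col6a1* and -0.92 for *Col11a2*. The smallest were -0.80 for *Col15a1*, -0.79 for *Col19a1* and -0.61 for *Col4a1*. Of 12 fits made without 1 library, *Col15a1* and *Col4a1* each passed in 4 and *Col3a1* in 9.

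At P35 the genotype difference also differed between regions for 12 of 35 collagen genes tested, as the CB difference minus the HC difference. Over all 14363 genes 5.1% were called lower and 4.5% higher. The values were -4.41 for *Col8a1*, -3.51 for *Col5a1*, -3.40 for *Col7a1*, -2.32 for *Col27a1*, -2.04 for *Col6a1* and -2.02 for *Col11a1*. They were -1.84 for *Col8a2*, -1.20 for *Col19a1*, -1.12 for *Col11a2*, -1.12 for *Col12a1* and -0.80 for *Col9a3*, and *Col25a1* was at 1.62. The sizes for *Col8a1* and *Col7a1* rest on low counts. *Col25a1*, *Col8a2* and *Col9a3* each passed in only 3 of 12 fits made without 1 library. Region cannot be told apart from lane here. Groups of 3 libraries are too small for a test of single outlying libraries.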

How the results depend on the processing

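In P35 CB the members called ranged from 15 to 22 over the settings and from 16 to 20 when 1 library was left out, with 0 higher. Counts moved by over 1.5 times in the following settings. In P14 CB DESeq2 called 1, and leaving out 1 library gave 0 to 1. In P14 HC DESeq2 called 2, the choroid plexus covariate 1 (*Col11a1*), and leaving out 1 library 0 to 1. In P35 HC DESeq2 called 3, no filter on low counts 5, 1 fit of all 12 libraries of the age 2, offsets for length and GC content 1, and leaving out 1 library 0 to 4. With the choroid plexus covariate in P35 HC the log2 fold change turned sign for *Col25a1* (0.39), *Col8a2* (-0.31) and *Col9a3* (-0.11), none of them called. That fit cannot tell marker level and genotype apart. With at least 10 counts in every library 16 of 23 tested members were called for region at P35, since fewer genes are tested. For age in WT HC leaving out 1 library gave 7 to 15 calls. Index type as a covariate in P35 HC, which sets N10 alone against 16GsoT/T, called 0. Other causes were not tested. Over the single members, 1627 values kept their side of the threshold, 130 lost the call and 27 gained it. No paired analysis was possible because the groups share no replicate numbers. Depth limits P35 HC most, where 14 members were too low to test.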
